A study of Rattus norvegicus with 252 samples.

Results

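The hippocampus of 12-month-old rats carrying the Q130 knock-in allele in the heterozygous state (Q130 KI Het) was compared with that of wild-type (WT) rats of the same age. The comparison was defined by the labels alone and holds 20 of the 252 libraries of the series, 10 from Q130 rats and 10 from WT rats, with 5 females and 5 males of each genotype and each library from a different animal. The animals were Long Evans rats, a knock-in model of Huntington's disease, and the right hippocampus was sampled for messenger RNA. The series also sampled the striatum, cortex and cerebellum, and ages of 2 and 6 months. Neither genotype received a treatment according to the labels, and all 20 libraries belonged to batch 2.

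Huntington's disease is caused by an expanded run of CAG codons, which encode glutamine, in the huntingtin gene, and a knock-in model carries such an expansion in the animal's own copy of the gene. The striatum is the region best known for losing cells in patients. The hippocampus is made up mainly of pyramidal neurons of the CA fields and granule neurons of the dentate gyrus, serves memory, and is a region in which altered synaptic plasticity has been described in rodent models of the disease. The genes are given here as Ensembl rat identifiers, which the files do not pair with gene names: 0 of 32883 identifiers matched the reference names, so neither the targeted gene nor named neuronal, glial or pathway genes could be looked up.

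Genotype differences in the aged hippocampus were small, and none passed the test across all genes. With sex as a covariate in edgeR's quasi-likelihood fit, 0 of 15317 genes passed a Benjamini-Hochberg adjusted p of 0.05 (0%), with a smallest adjusted p of 0.405 and a next one of 0.860. At an unadjusted p under 0.05 there were 716 genes (4.67% of those tested), 307 of them higher in Q130 (2.00%) and 409 lower (2.67%), and 15 genes lay under 0.001 (0.0979%). The other tools run were limma-voom, which called 0 genes, and DESeq2, which called 1, the gene ENSRNOG00000011527, at an adjusted p of 0.00221. Estimates were spread over both directions, with 7475 genes higher and 7842 lower in Q130 and a median absolute difference of 0.039 on the log2 scale. The p-values were spread about evenly between 0 and 1, as the histogram of the genotype term shows.

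**Figure D1:**
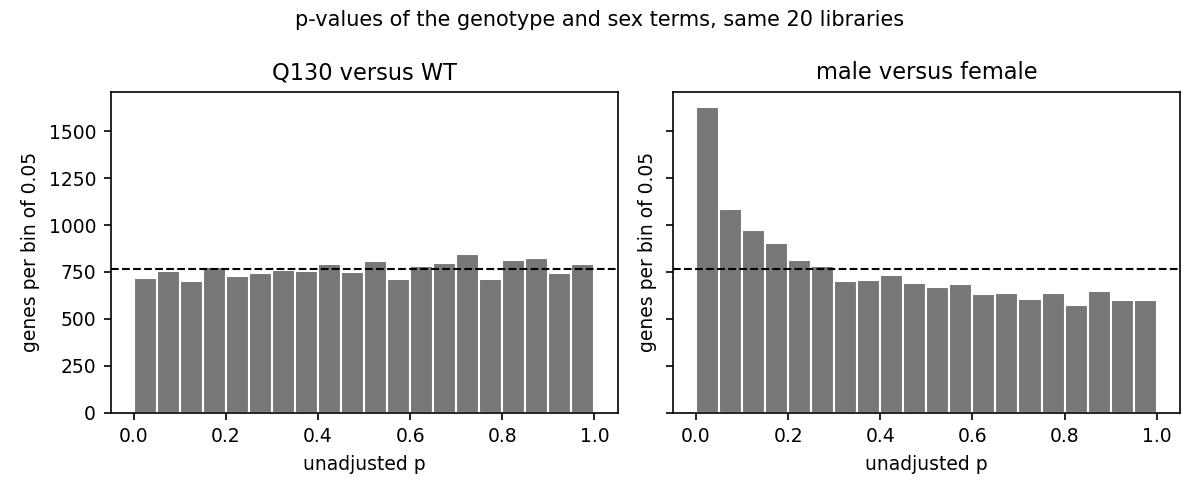
Histograms of unadjusted p-values over the 15317 genes tested, in bins of 0.05, for the genotype term on the left and the sex term of the same fit on the right; the dashed line is the height of a flat histogram. The lowest bin held 716 genes for genotype and 1627 for sex.

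The confidence intervals bounded most genes. Of the 13986 genes with a mean level of at least 1 CPM (counts per 1000000 counts of the library), 97.1% had a 95% confidence interval that lay wholly within a 1.5-fold difference in either direction, and the median half-width of the interval was 0.11 on the log2 scale. The interval covers the spread between these animals as well as counting error. The common biological coefficient of variation was 9.51%. Estimates beyond 1.5-fold were found for 38 of these genes, 18 higher and 20 lower in Q130, between -1.29 and 1.40 on the log2 scale. These 38 were weakly expressed and variable genes: their median level was 2.62 CPM against 23.9 CPM over all 13986, and their median coefficient of variation was 79.6% in Q130 and 66.5% in WT, against 7.59% and 8.76% over all. Of the 38, 10 had an unadjusted p under 0.05, 8 of them higher in Q130 and 2 lower.

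**Figure D2:**
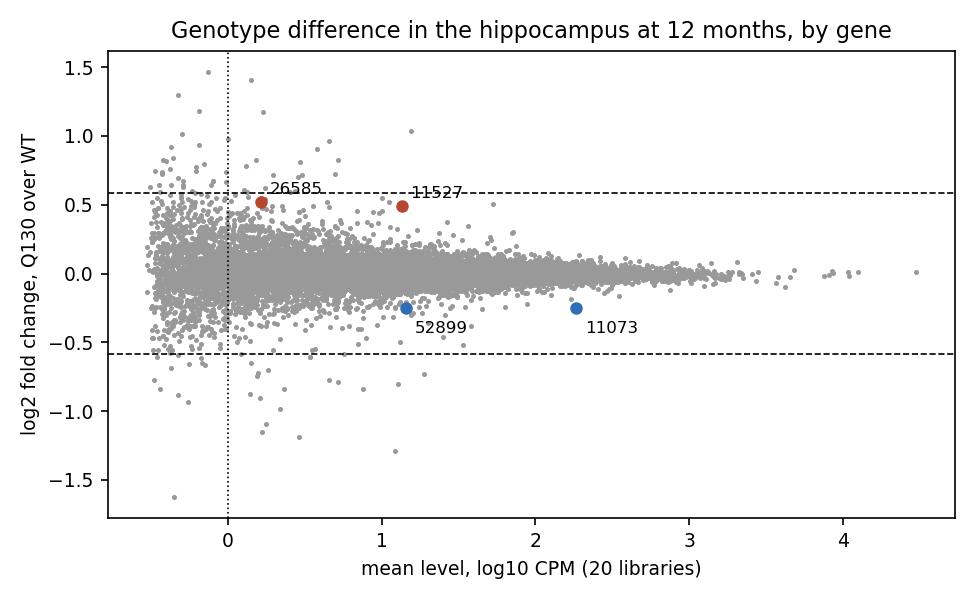
Log2 fold change of Q130 over WT (vertical) against the mean level in log10 CPM over the 20 libraries (horizontal), 1 grey point per gene tested. Dashed lines mark a 1.5-fold difference, the dotted line marks 1 CPM, and coloured points are the 4 genes described in the text by the last 5 digits of their identifiers; the points beyond 1.5-fold lie mostly at low levels.

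The gene with the smallest p was ENSRNOG00000011527. Its level ran from 12.7 to 19.4 CPM in Q130 rats, with a median of 15.7, and from 8.87 to 14.5 CPM in WT rats, with a median of 10.5. All 10 Q130 libraries lay above the WT median, and 6 of them lay above every WT library. The mean was 15.7 ± 2.39 CPM in Q130 and 11.2 ± 1.82 CPM in WT (SD, n = 10 each), a log2 difference of 0.49 ± 0.09 (SE) with an unadjusted edgeR p of 2.64e-05 and an adjusted p of 0.405. Per length and depth the same gene stood at 18.2 ± 2.92 TPM (transcripts per 1000000) in Q130 and 12.9 ± 2.21 TPM in WT. The difference was 0.43 ± 0.13 in males and 0.55 ± 0.11 in females. In the hippocampus of other animals it was -0.11 ± 0.14 at 6 months and -0.20 ± 0.16 at 2 months. Both estimates had the opposite sign, but neither was told apart from no difference (unadjusted edgeR p = 0.431 and 0.238). In the same animals at 12 months it was 0.21 ± 0.08 in the cerebellum, 0.14 ± 0.10 in the cortex and 0.06 ± 0.15 in the striatum. The edgeR adjusted p were 0.174, 0.857 and 0.885 in that order. In the cerebellum of other animals it was 0.14 ± 0.07 at 6 months and -0.13 ± 0.18 at 2 months. The contrast of 12 with 2 months for this gene in the hippocampus was 0.70 ± 0.20, with an unadjusted p of 8.86e-04 and an edgeR adjusted p of 0.847. The gene was chosen by its values at 12 months, which enter this contrast, so the contrast gives no separate support.

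ENSRNOG00000026585, the gene with the next smallest p, was also higher in Q130. It was a weakly expressed gene, with levels of 1.57 to 2.42 CPM in Q130 (median 1.93) and 0.975 to 1.68 CPM in WT (median 1.39). All 10 Q130 libraries lay above the WT median and 7 lay above every WT library. The log2 difference was 0.52 ± 0.12 (edgeR adjusted p = 0.860). In the separate animals of 6 months the same gene differed by 0.65 ± 0.16, from means of 1.96 ± 0.588 CPM in Q130 and 1.24 ± 0.272 CPM in WT (SD, n = 10 each), with an unadjusted p of 6.08e-04 and an edgeR adjusted p of 0.989. At 2 months its estimate was -0.02 ± 0.15.

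Among genes lower in Q130 the smallest p belonged to ENSRNOG00000052899. Its level was 10.4 to 15.1 CPM in Q130 (median 13.5) and 14.1 to 18.5 CPM in WT (median 15.5). All 10 Q130 libraries lay below the WT median and 7 lay below every WT library. The log2 difference was -0.25 ± 0.06 (edgeR adjusted p = 0.860), with -0.28 ± 0.09 in males and -0.21 ± 0.08 in females. It was -0.26 ± 0.15 at 6 months and 0.05 ± 0.08 at 2 months.

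ENSRNOG00000011073 was singled out after its values were seen, because it was lower in Q130 in every tissue and age set beside the hippocampus here. It stood ninth by p in the hippocampus at 12 months. Its level was 149.9 to 183 CPM in Q130 (median 173) and 151 to 224 CPM in WT (median 209), and it averaged 169 ± 11.3 CPM in Q130 and 201 ± 24.7 CPM in WT (SD, n = 10 each). All 10 Q130 libraries lay below the WT median, but 1 lay below every WT library, since WT female 2 had 151 CPM and WT male 5 had 165 CPM. The log2 difference was -0.25 ± 0.06 (edgeR adjusted p = 0.860). Per length it stood at 25.1 ± 1.86 TPM in Q130 and 29.8 ± 4.07 TPM in WT. The estimate was -0.36 ± 0.06 at 2 months and -0.34 ± 0.10 at 6 months in the hippocampus of other animals, with edgeR adjusted p of 0.0760 and 0.989. In the same animals at 12 months it was -0.42 ± 0.07 in the striatum, -0.34 ± 0.08 in the cortex and -0.50 ± 0.07 in the cerebellum, and of these the cerebellar value passed the test (edgeR adjusted p = 0.00485). In the cerebellum of other animals it was -0.42 ± 0.11 at 2 months and -0.49 ± 0.06 at 6 months.

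**Figure D3:**
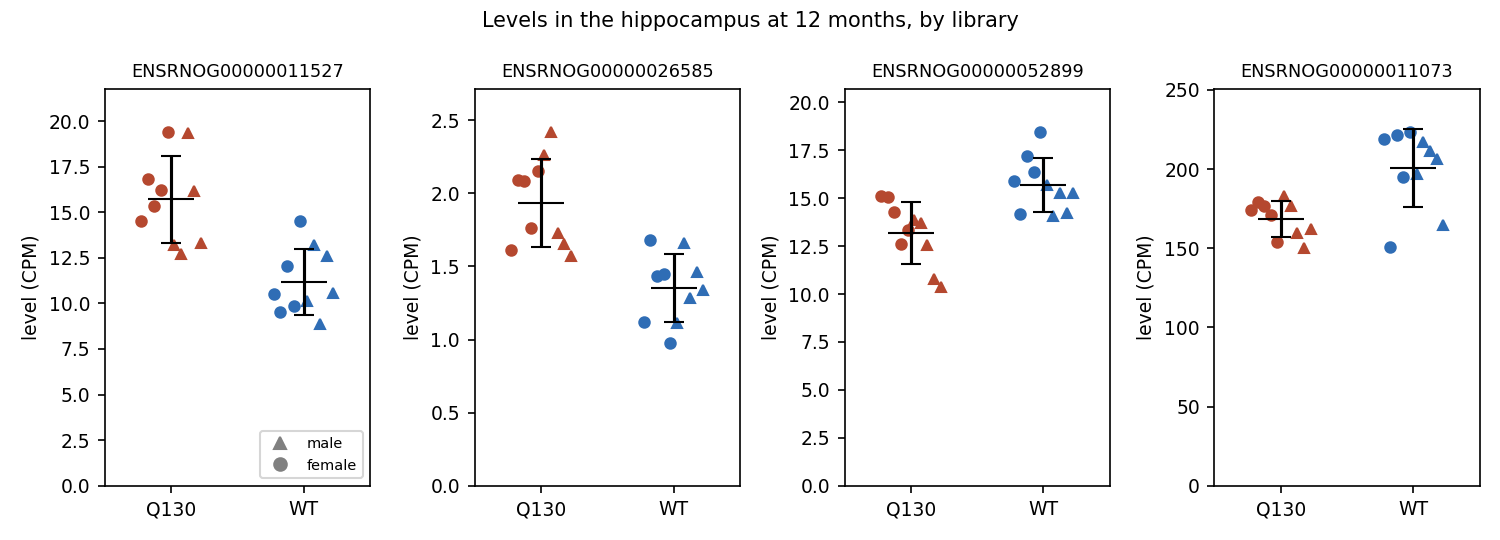
Level in CPM of 4 genes in each of the 20 libraries, Q130 left and WT right in each panel; triangles are males, circles are females, and black bars are the mean ± SD of 10 libraries. The groups overlap in each panel, and in the fourth panel WT female 2 (151 CPM) and WT male 5 (165 CPM) lie among the Q130 libraries.

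ENSRNOG00000011073 was not called in the hippocampal fit of all 20 libraries, and its estimate varied with 3 WT libraries. WT female 2, WT female 4 and WT male 5 stood apart on the second principal component, with scores of -19.7, -15.7 and -21.4, while the next lowest of all 20 libraries was at -5.65. These were also the 3 WT libraries with the lowest levels of this gene, with 195 CPM in WT female 4. Leaving out the lowest WT values of a gene that is lower in Q130 enlarges its difference by construction. The fits without them therefore give no separate support for this gene. In an alternative chosen after seeing the data, leaving out these 3 libraries gave 1 called gene of 15490, ENSRNOG00000011073 itself, at a log2 difference of -0.34 (edgeR adjusted p = 5.06e-05), and 997 genes at an unadjusted p under 0.05 (6.44%). Leaving out WT female 2 alone gave a log2 difference of -0.29 and an edgeR adjusted p of 0.0538. A measure of how levels varied with gene length was taken in each library. It was the median log2 CPM of the quintile of genes longest by effective length minus that of the shortest, each gene relative to its mean over the 20 libraries. It was -0.13 in WT female 2, -0.04 in WT female 4 and -0.18 in WT male 5 on the log2 scale, and -0.12 to 0.08 over the Q130 libraries, so WT female 2 and WT male 5 lay below every Q130 library, while WT female 5, at 0.12, lay above every one. Its mean difference between Q130 and WT was 0.01 (exact permutation within sex, two-sided p = 0.700, n = 10 each). The effective length of ENSRNOG00000011073, taken from the ratio of counts to TPM, was 5.72 times the median gene. The part of this length measure in the result was not tested.

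The libraries themselves did not separate by genotype on the leading principal components. Total counts were 26.6 to 37.4 M in Q130 and 25.3 to 33.2 M in WT, a mean difference of 2.21 M (exact permutation within sex, two-sided p = 0.0955, n = 10 each). Genes with any count numbered 18130 to 18626 per library. The median correlation of each library with the other 12-month hippocampal libraries was 0.984 to 0.987. Its median correlation with the 12-month libraries of the cortex (0.958 to 0.966), striatum (0.936 to 0.940) and cerebellum (0.876 to 0.883) was lower, so the tissue label held for each. The first component carried 19.4% of the variance, and sex accounted for 89.4% of it and genotype for 0.417%. Over the first 6 components the genotype difference had exact permutation p-values of 0.16 to 0.857, adjusted 0.504 to 0.857.

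**Figure D4:**
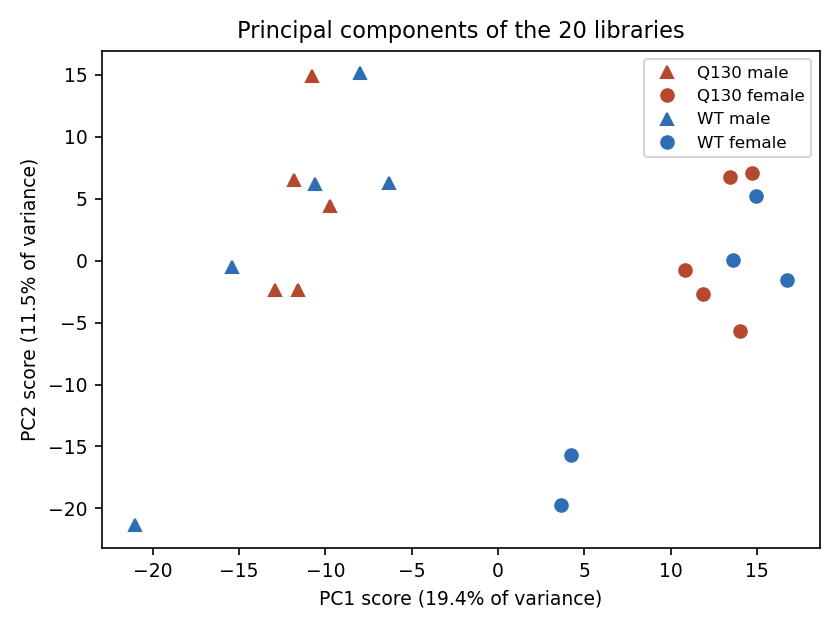
Scores of the 20 libraries on the first and second principal components of log2 CPM over the 13986 genes at 1 CPM or more; colours give the genotype and shapes the sex. Males and females separate along the first component, Q130 and WT libraries mix, and 3 WT libraries lie below the others on the second component, at -21.4, -19.7 and -15.7.

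Sex served as a measure of what the same libraries could show. In the same fit 60 genes were called between males and females (0.392% of 15317), 21 higher and 39 lower in males, and 1627 had an unadjusted p under 0.05 (10.6%). Of the 60, 5 were higher and 2 lower in males by more than 4 on the log2 scale, and the median absolute difference of the others was 0.27. Levels did not overlap between the sexes for 14 genes (0.0914% of those tested). A score built from sex-differing genes of the 2- and 6-month animals was 6.11 to 7.86 in the 10 males and -8.75 to -7.24 in the 10 females, so all labels of sex held. The count of 60 varied with single libraries: without WT female 2 it was 138, without WT male 4 91, without Q130 female 1 39, without Q130 male 3 38, without Q130 male 2 37 and without WT male 1 34.

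Genotype levels did not overlap for 1 gene (0.00653% of 15317), and its difference was slight. It ran from 431 to 445 CPM in Q130 (median 439.9) and from 448 to 468 CPM in WT (median 456). Its log2 difference was -0.05 ± 0.02, with an unadjusted edgeR p of 0.00991 and an adjusted p of 0.9997. The gene was singled out after its values were seen.

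The sexes were then taken apart. In males 0 of 15381 genes were called (0%), and 510 fell under an unadjusted p of 0.05 (3.32%). In females 0 of 15348 were called (0%), and 776 fell under it (5.06%). Of the 503 and 764 genes of these lists that were tested in both sexes, 28 were in both and 17 of these had the same direction, which is 3.38% of the male list and 2.23% of the female list. Of the male list, 271 genes (53.9%) had an estimate of the same sign in females. The test of the difference itself, genotype by sex, called 0 of 15317 genes (0%); an unadjusted p under 0.05 was found for 599 (3.91%), and the smallest edgeR adjusted p was 0.855.

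Gene groups defined in other animals were set beside all tested genes, of which 48.8% were higher in Q130 by estimate and 4.67% had an unadjusted p under 0.05. Both shares varied with level, from 57.9% and 5.87% in the lowest quintile by level to 41.0% and 2.90% in the highest. The mean log2 CPM in Q130 was 3.18 for hippocampus-, 1.43 for striatum-, 1.59 for cortex- and 2.10 for cerebellum-enriched genes, against 4.02 for all tested genes. The background was not matched by level. The medians of the groups lay between -0.09 and 0.05 on the log2 scale, while the share of genes higher in Q130 ran from 23.1% in the cortex-enriched group to 71.4% in a group of 7 genes. Hippocampus-enriched genes, at least 2 log2 units above the other 3 tissues in WT rats of both 2 and 6 months, numbered 48, and all 48 were tested. Of these 31 were higher and 17 lower by estimate, with a median log2 difference of 0.04, 0 called and 3 (6.25%) at an unadjusted p under 0.05. Their mean log2 CPM was 3.11 to 3.27 in Q130 libraries (median 3.20) and 3.08 to 3.26 in WT libraries (median 3.14), so the genotypes overlapped. Bulk tissue does not tell fewer cells of a type from less RNA per cell.

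Genes enriched in the striatum, cortex or cerebellum were described in the same way, as a measure of other tissue in the samples. Of 70 striatum-enriched genes tested (of 86), 35 were higher in Q130 and the median was 0.00. An unadjusted p under 0.05 was found for 6 of them (8.57%, against 4.67% of all tested genes), 1 higher and 5 lower. Of 26 cortex-enriched genes tested (of 47), 6 were higher and 20 lower, and the median was -0.09. Under an unadjusted p of 0.05 there were 2 of them (7.69%), each lower. The mean log2 CPM of the cortex-enriched genes ran from 1.23 to 2.08 over the Q130 libraries and from 1.33 to 2.05 over the WT libraries. Of 153 cerebellum-enriched genes tested (of 244), 97 were higher and the median was 0.05. Under an unadjusted p of 0.05 there were 9 of them (5.88%), 6 higher and 3 lower. By sex, the cortical median was -0.25 in males and 0.01 in females, and the striatal median -0.11 in males and 0.02 in females, so both changed sign between the sexes. None of these genes was called.

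Genes that changed with age in the WT hippocampus between 2 and 6 months (2643 of 15474 called, 17.1%) had median genotype differences close to 0 at 12 months. Of the 1317 tested that were higher at 6 months, 566 were higher in Q130 at 12 months (43.0%), and the median was -0.01. An unadjusted p under 0.05 was found for 65 of them (4.94%), 18 higher and 47 lower. This share was close to the 4.67% of all tested genes. Of the 1308 tested that were lower at 6 months, 755 were higher in Q130 at 12 months (57.7%), and the median was 0.01. An unadjusted p under 0.05 was found for 58 of them (4.43%, also close to that of all genes), 41 higher and 17 lower. The mean log2 CPM of the first group was 4.97 to 5.08 in Q130 and 4.96 to 5.08 in WT, and of the second group 4.29 to 4.40 in Q130 and 4.25 to 4.41 in WT. When the 3 WT libraries that stood apart on the second component were left out, both medians changed sign, to 0.01 and -0.01.

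In the cerebellum, 44 of 15305 genes differed by genotype at 6 months (0.287%), and these animals were not the ones studied here. Of the 7 that were higher in the Q130 cerebellum, 5 were higher in the Q130 hippocampus at 12 months, with a median of 0.05. An unadjusted p under 0.05 was found for 2 of the 7 (28.6%, against 4.67% of all tested genes), 1 higher and 1 lower in Q130. Of the 36 tested that were lower there, 21 were lower here, with a median of -0.02. An unadjusted p under 0.05 was found for 5 of the 36 (13.9%), each of them lower. ENSRNOG00000011073, singled out above, was among the 37 that were lower in the cerebellum at 6 months (edgeR adjusted p = 7.13e-05). It was also among these 5.

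**Figure D5:**
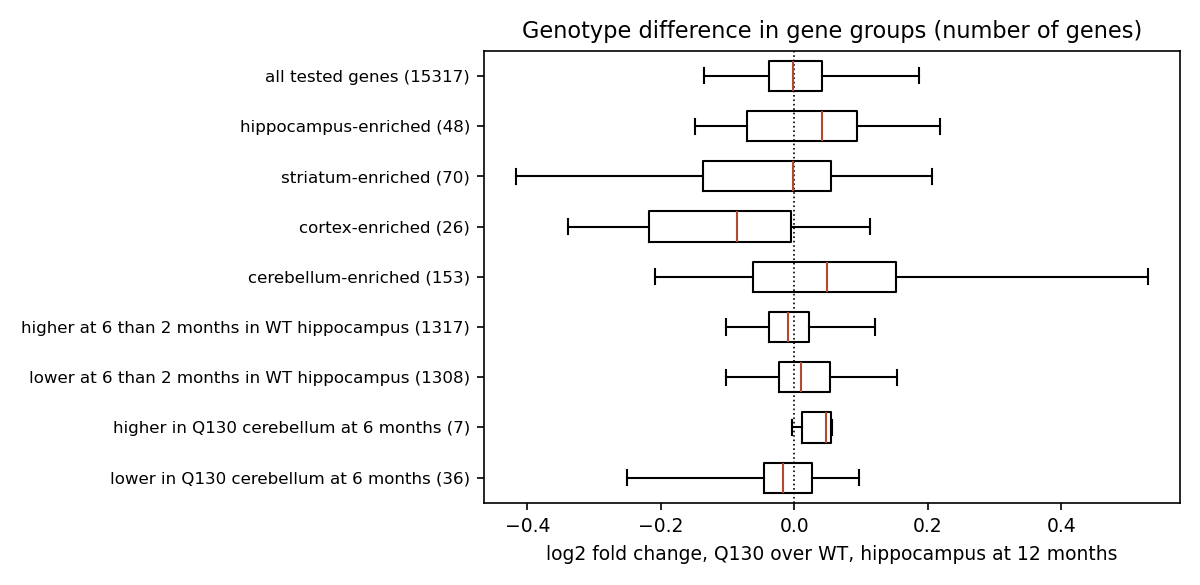
Log2 fold change of Q130 over WT in the hippocampus at 12 months for all tested genes and for groups defined at other ages or in other tissues, with the number of genes in brackets. Boxes span the quartiles with the median in red, whiskers the 5th to 95th percentiles; each median lies between -0.09 and 0.05.

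The younger hippocampus was compared next, in animals that were not shared with the 12-month groups. The 2- and 6-month libraries shared a batch, and the 12-month libraries formed another. Age and batch thus changed together between 12 months and the younger ages, while each genotype difference compared libraries of the same batch. At 2 months 0 of 15466 genes were called (0%) and 949 had an unadjusted p under 0.05 (6.14%). At 6 months 0 of 15472 were called (0%) and 519 had an unadjusted p under 0.05 (3.35%). Of the 938 genes of the 2-month list that were tested at 12 months, 269 (28.7%) had an estimate of the same sign, so most had the opposite sign. Both lists held 65 of them, but 10 in the same direction, 1.07% of the 2-month list and 1.40% of the 12-month list, and the rest of the 65 in the opposite direction. Of the 506 genes of the 6-month list, 318 (62.8%) had the same sign at 12 months, and of the 51 in both lists 44 had the same direction, 8.70% of the 6-month list and 6.15% of the 12-month list. Q130 males 3 and 5 at 6 months stood apart from the other hippocampal libraries. Without them 684 of 15562 genes had an unadjusted p under 0.05 at 6 months (4.40%, 0 called), and of the 675 of these tested at 12 months 477 (70.7%) had the same sign, and of the 76 in both lists 71 had the same direction, 10.5% and 9.92% of the lists. Genes are not independent replicates, and these shares carry no test.

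The tests of the difference between ages called no gene. For 12 minus 6 months, 0 of 16030 genes were called (0%), 647 had an unadjusted p under 0.05 (4.04%) and the smallest edgeR adjusted p was 0.987. For 12 minus 2 months, 0 of 16030 were called (0%), 782 had an unadjusted p under 0.05 (4.88%) and the smallest was 0.761. Without the libraries that stand apart, the unadjusted counts were 411 for 12 minus 6 months and 1550 for 12 minus 2 months, with 0 called in both.

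The hippocampus was also set against the other tissues of the same animals at 12 months, with the animal as a block. Against the striatum 0 of 16438 genes were called (0%) and 1428 had an unadjusted p under 0.05 (8.69%). Against the striatum, a fit of those tissues only had 719 of these. Against the cortex 0 were called (0%) and 435 had one (2.65%), and 788 had one without the libraries that stand apart. Against the cerebellum 0 were called (0%) and 1036 had one (6.30%). The smallest edgeR adjusted p was 0.236, 0.961 and 0.233 in that order. Libraries of the striatum and cortex that stood apart from their own tissue, 3 in all and each from a Q130 rat, took part in this fit. Without them 14 of 16512 genes were called for the hippocampus against the cerebellum (0.0848%), 4 with a difference above 0 and 10 below, with a smallest edgeR adjusted p of 0.00462. In each of the 14 the estimates of the tissues had opposite signs, and in 12 the cerebellar estimate was the larger in size. The median absolute log2 difference of these 14 was 0.13 in the hippocampus and 0.33 in the cerebellum, 10 were higher in the Q130 cerebellum, and 12 were called in the cerebellum alone; being chosen by the contrast, they had to differ between the tissues. In a fit of the hippocampus and cerebellum only, with all their libraries, 0 of 15927 genes were called, 1754 had an unadjusted p under 0.05 and the smallest edgeR adjusted p was 0.0738. For ENSRNOG00000011073 the hippocampal difference minus the cerebellar one was 0.25 ± 0.08 in the fit of all 4 tissues (edgeR adjusted p = 0.573).

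At the level of transcripts, edgeR called 0 of 19347 tested of 41078 listed (0%), while DESeq2 called 4, limma-voom 0 and edgeR without the filter on low counts 1; 851 fell under an unadjusted p of 0.05 (4.40%), 354 higher and 497 lower in Q130, and a smallest edgeR adjusted p of 0.626. The sex term of that fit called 53 transcripts. Of the 17222 transcripts at 1 CPM or more, 160 had estimates beyond 1.5-fold, and 90.4% had a 95% interval wholly within that range.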

How the data were processed

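RNA was sequenced from frozen tissue after enrichment from at least 3.75 ug of total RNA, per the labels' protocols. No source used here gives the aligner, counting program or genome build. The authors deposited expected counts per gene and per transcript, which were rounded to whole numbers. The table named FPKM, as deposited by the authors, has the same total in every column, that of TPM, so its values were read as TPM and used only for levels per length. Of the columns of the gene table, 24 striatal ones could not be matched to 1 sample and were not used. Groups came from the labels, and replicates are separate animals.

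Genes were filtered with filterByExpr, scaled by TMM and tested with edgeR 4.0.16 (robust quasi-likelihood) in R 4.3.3 with sex as a covariate; interactions had the terms of genotype with sex, age or tissue. limma 3.58.1 and DESeq2 1.42.0 served as alternatives, and the code was tested on simulated data. Log2 CPM used a prior count of 2. Genotype differences between libraries used exact permutation within sex. A library stood apart when its median correlation with others of its tissue was under 0.97, which held for 9 of the series and 0 of these 20.

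Without gene names, the rule for naming genes allowed at most 2 identifiers higher and 2 lower, by smallest p. It was applied as the 2 smallest p among genes higher in Q130 and the smallest p among genes lower. ENSRNOG00000011073 was named outside this rule, after its values were seen. The lists of marker and pathway genes are symbols and could not be tested. The comparison and lists were chosen with earlier results of these data known. The genotypes shared none of the first parts of the animal identifiers (6 in Q130 and 6 in WT, 0 shared). The meaning of these parts is not stated, so a difference that follows them cannot be told apart from genotype.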

Additional observations from a re-analysis of the deposited data

Results flagged for a closer look

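WT male 5 was far from the other WT libraries in a pair of measures. Its median correlation with the other hippocampal libraries was 0.982, against 0.984 for the next lowest WT library. Its 10 most abundant genes took 12.2% of its counts, against 10.8% in the next highest WT library. Q130 libraries reached nearly the same values, with a median correlation of 0.983 in Q130 male 1 and a share of 12.0% in Q130 male 2. These were 2 of 38 sets of 10 libraries checked, and chance marks about 1 in 20.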

How the results depend on the processing

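The genotype count stayed at 0 in 30 of 32 alternatives: DESeq2 called 1 gene, as did the fit without the 3 WT libraries lowest on the second component, each a different gene. Leaving out each library in turn gave 0 to 0 called genes and 602 to 879 at an unadjusted p under 0.05. A fit of all 60 hippocampal libraries had 397 of these, against 716. The replicate block called 0 genes (658 unadjusted); replicate numbers did not pair animals, since same-numbered libraries correlated at -0.134 to 0.0954 and 0 of 10 Q130 libraries correlated best with their own number. The sex count of 60 became 171 with library quality weights in limma-voom, 209 without the 3 WT libraries, and 34 to 138 with single libraries left out. The 4 named genes kept their direction in each of the 32 alternatives, and the threshold was passed by ENSRNOG00000011527 under DESeq2 (adjusted p range over alternatives 0.00221 to 0.999993) and ENSRNOG00000011073 without the 3 WT libraries (5.06e-05 to 0.999993). These genes were chosen by their values in the same libraries, so the kept direction gives no separate support. Interaction counts stayed at 0 except for the cerebellum without libraries that stand apart (14). Their unadjusted counts moved more: without those libraries 1550 against 782 for 12 minus 2 months, 411 against 647 for 12 minus 6 months, 788 against 435 for the cortex and 1991 against 1036 for the cerebellum; without a filter 1265 and 1135 for the ages; and 719 against 1428 for the striatum in a fit of those tissues only. Transcript calls were 1 without a filter (1441 unadjusted) and 4 with DESeq2. The causes were not tested. No 12-month hippocampal library fell under the correlation limit, so that alternative left the main and sex results as they were.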

Other observations

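The spread between animals was smaller by estimate in Q130 than in WT rats. The median SD of log2 CPM within sex was 0.106 in Q130 and 0.125 in WT over the 13986 genes at 1 CPM or more, and it was the larger in Q130 for 4902 of them (35.0%). Without WT male 5 the WT value was 0.119 and the share 39.6%. This was not tested, since genes of the same libraries are not independent.

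The genotype estimate varied with the level of a gene. From the lowest to the highest quintile by level, the share of genes higher in Q130 by estimate was 57.9%, 53.6%, 48.6%, 42.8% and 41.0%, and the share at an unadjusted p under 0.05 was 5.87%, 5.71%, 4.77%, 4.11% and 2.90%. The Q130 libraries were deeper on average, at 31.4 M counts against 29.2 M in WT, and the part of depth in this trend was not tested.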
